A study of Homo sapiens with 24 samples.

Results

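The histone genes of HT29 cells, an established line of human colon adenocarcinoma, were followed on 24 Agilent arrays after 6 h of treatment. The members were all probes that are not controls and whose gene symbol starts with HIST1H to HIST4H, with H1F0, H1FN or H1FX, with H2AF followed by J, V, X, Y or Z, or with H3F3. There were 103 such probes with 82 gene symbols among the 50599 probes of the array, and 95 of them, with 75 symbols, passed the filter, which asked for a signal marked well above background in a whole group of 4 arrays. Of these, 77 probes belong to 64 replication-dependent genes, 17 to 10 genes of histone variants, and 1 to the antisense gene H1FX-AS1. The 8 probes that did not pass were those of HIST2H2BA, HIST1H1T, HIST1H2BA, HIST1H4G, HIST2H4A, H2AFY2 and HIST1H2APS1.

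Histones are the small basic proteins around which nuclear DNA is wound. H2A, H2B, H3 and H4 form the core of the nucleosome, and H1 binds the linker DNA between cores. The replication-dependent genes lie in clusters, are transcribed in S phase, and make mRNAs that normally end in a conserved stem-loop in place of a poly(A) tail. Most variant genes lie elsewhere, make polyadenylated mRNAs, and are expressed through the cell cycle or in resting and differentiated cells. Short-chain fatty acids such as propionate are known to inhibit histone deacetylases, and H1F0 is a linker histone known to rise in such cells.

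The 6 groups held 4 arrays each. NT was untreated, C3/C2 received 30 mM propionate with 15 mM acetate, SN received the culture supernatant of Propionibacterium freudenreichii diluted to 1/2, and TRAIL received the death ligand at 100 ng/ml with 2 µg/ml of anti-Flag M2. TRAIL+C3/C2 and TRAIL+SN received both. One cell line was used. The paper describes 2 independent experiments, each in duplicate, so the 4 arrays of a group are not 4 independent experiments. The labels do not say which replicates were duplicates of the same experiment, so the p-values measure only the spread between these samples. NT and C3/C2 shared slides 1 (their replicates 1) and 2 (the rest), SN and TRAIL shared slide 3, and the co-treatments shared slide 4. C3/C2 was therefore compared with NT within slides, and so were SN with TRAIL and TRAIL+SN with TRAIL+C3/C2. In the other comparisons slide and group cannot be told apart.

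A level is given here as the log2 signal of a probe minus the 75th percentile of its array, and a difference as the difference of 2 group means of such levels, with the SE of the limma fit. A probe was called at a fold of 2 or more, which is a log2 difference of 1 or more in size, with an adjusted p under 0.05. The 75th percentile was 745 to 1009 in NT and 453 to 518 in TRAIL+C3/C2. With the array median in place of that percentile, the median difference from NT over all probes moved to between -0.24 and 0.14, and with spike-in probes to between -0.61 and 0.06. The median of the replication-dependent probes relative to that of all probes was -0.78 in SN, -0.33 in TRAIL+SN, -0.09 in C3/C2, 0.12 in TRAIL and 0.28 in TRAIL+C3/C2. A scaling by 1 constant per array leaves this difference as it is by construction. All 10 markers of colon epithelium looked at were well above background on the 24 arrays, as were 1 of 5 fibroblast, 3 of 3 endothelial and 2 of 4 leukocyte markers, whose part in the results was not tested.

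The labelling kit primes cDNA synthesis on poly(A), while replication-dependent histone mRNAs normally carry the stem-loop at their end. The part that this plays in the values below was not tested. The start of the stem-loop, GGCNCTTTT on the strand of the probe, occurred in 9 of the 77 replication-dependent probes, against 60 of the 50599 probes of the array (0.119%). The 9 windows are shown because they place these probes at the 3′ end of the message. Capitals mark GGCNCTTTT, and go on through CAGNGCC where the probe has these letters next. The bases around the motif, up to the end of the probe, are in lower case.
HIST1H2AI: ccaaaGGCTCTTTTCAGAGCCaccta
HIST1H2AG: ccaacGGCTCTTTTcagg
HIST1H2BE: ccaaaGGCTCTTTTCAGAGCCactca
HIST1H2BF: ccaaaGGCTCTTTTaagagcca
HIST3H2BB: ccaaaGGCTCTTTTcaga
HIST1H3H: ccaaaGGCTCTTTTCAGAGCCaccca
HIST2H3A: caaaaGGCTCTTTTCAGAGCCacc
HIST1H4A: ccaaaGGCCCTTTT
HIST1H4K: caaaaGGCCCTTTTtagggcccc
Among the histone probes, 28 of 103 shared a run of at least 20 bases with a probe of another histone gene, and 13 of 103 list transcripts of more than 1 gene, so single genes of a class may share signal.

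The main pattern was a split between the linker histones H1F0 and H1FX, which rose in every group that received C3/C2 or SN, and the replication-dependent genes, which fell with SN and not with C3/C2. With SN, 21 of the 94 histone probes other than the antisense probe were called lower (22.3%, against 9.69% of all 27957 probes tested) and 3 higher (3.19%, against 14.1%), H1F0, H1FX and a dim probe of HIST2H2BF. With C3/C2, none was called lower (6.22% of all probes were; 0 of the 94 at an unadjusted p under 0.05 with the same fold) and 8 were called higher (8.51%, against 13.3%). With TRAIL, 2 were called lower (2.11% of all probes) and 1 higher (0.723%). In TRAIL+C3/C2, 15 probes rose past the fold of 2 (16.0%, against 16.4%) and none lower (8.12% of all probes; 0 at an unadjusted p). With TRAIL+SN, 11 were called lower (11.7%, against 10.2%) and 4 higher (4.26%, against 16.1%). Read against all probes, the share called lower with SN stood above the background. The shares called higher in TRAIL+C3/C2 and lower in TRAIL+SN were near it, and the 11 called lower in TRAIL+SN became 18 with the array median and 34 with spike-in probes as the scale. At any fold, with an adjusted p under 0.05, C3/C2 had 21 histone probes higher and 20 lower (34.9% and 28.3% of all probes), and SN 11 higher and 73 lower (35.2% and 33.8%). With TRAIL 33 were higher and 7 lower (19.3% and 12.1%), with TRAIL+C3/C2 55 and 12 (40.1% and 29.4%), and with TRAIL+SN 18 and 49 (37.7% and 32.6%).

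**Figure D1:**
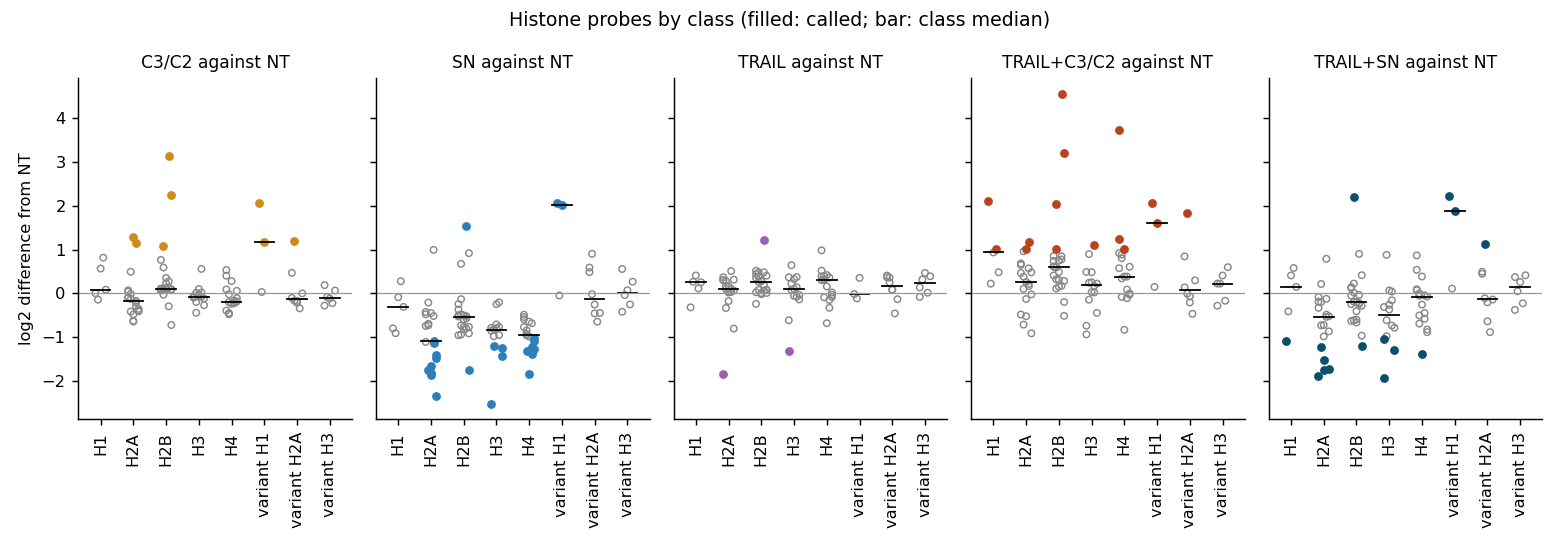
Log2 difference from NT (y axis) of each histone probe, by class (x axis), in the 5 treatments. Each point is 1 probe, filled where it was called, and the bar is the median of its class. With SN the medians of the 5 replication-dependent classes lie between -1.09 and -0.31, while H1F0 and H1FX lie near 2.

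Among the variants, H1F0 rose about 4-fold wherever the acids or SN were present. Its levels were 2.69, 2.72, 2.51 and 2.56 in NT and 2.69, 2.72, 2.45 and 2.54 in TRAIL. They were 4.57, 4.67, 4.78 and 4.70 in C3/C2, 4.82, 4.82, 4.63 and 4.47 in SN, 4.84, 4.86, 4.50 and 4.54 in TRAIL+C3/C2, and 4.92, 5.06, 4.66 and 4.74 in TRAIL+SN. The lowest array of these 4 groups stood above the highest array of NT and TRAIL. C3/C2 differed from NT by 2.06 ± 0.10 (SE), SN by 2.07 ± 0.10, TRAIL+C3/C2 by 2.07 ± 0.10 and TRAIL+SN by 2.23 ± 0.10, with adjusted p from 6.8e-14 to 3.6e-13 (limma). With TRAIL alone the difference was -0.02 ± 0.10 (adjusted p = 0.91). SN and C3/C2 differed by 0.01 ± 0.10 (adjusted p = 0.96), and both co-treatments by 0.16 ± 0.10 (adjusted p = 0.24). The size depended on the processing, and the probe was still called against NT in every alternative. The smallest differences were 1.76 in C3/C2, 1.94 in SN, 1.35 in TRAIL+C3/C2 and 1.71 in TRAIL+SN. The H1F0 probe lies at chr22:38203147-38203206 (hg19, plus strand) and starts with agacttactgcagtcgatttgggatttgct.

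H1FX, the other linker variant that rose, was higher with SN than with C3/C2. Its levels were 1.58, 1.48, 1.11 and 1.30 in NT, 2.70, 2.52, 2.48 and 2.44 in C3/C2, and 3.49, 3.50, 3.29 and 3.22 in SN. They were 1.90, 1.88, 1.59 and 1.48 in TRAIL, 3.14, 3.06, 2.81 and 2.83 in TRAIL+C3/C2, and 3.40, 3.49, 2.88 and 3.21 in TRAIL+SN. All arrays of the 4 groups with acids or SN stood above those of NT and TRAIL, and those of NT and TRAIL overlapped. H1FX rose by 2.01 ± 0.13 (SE) with SN, 1.88 ± 0.13 with TRAIL+SN, 1.60 ± 0.13 with TRAIL+C3/C2 and 1.17 ± 0.13 with C3/C2, against 0.35 ± 0.13 in TRAIL (adjusted p = 0.047, below the fold of 2). SN exceeded C3/C2 by 0.84 ± 0.13 (adjusted p = 2.8e-05), across slides and below the fold of 2. On slide 4 the co-treatments differed by 0.29 ± 0.13 (adjusted p = 0.097). With the array median or the spike-in probes as the scale, the rise with C3/C2 was 0.87 and 0.97, under the fold of 2, and with the spike-in probes that in TRAIL+C3/C2 was 0.88. The antisense gene H1FX-AS1 stood above NT with C3/C2, as H1FX did, and below it with SN: its difference from NT was 0.87 ± 0.28 in C3/C2 and -0.70 ± 0.28 in SN, and it was called lower in TRAIL+SN, where all 4 arrays were too dim to be marked well above background and it stood at least 1.34-fold lower there.

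**Figure D2:**
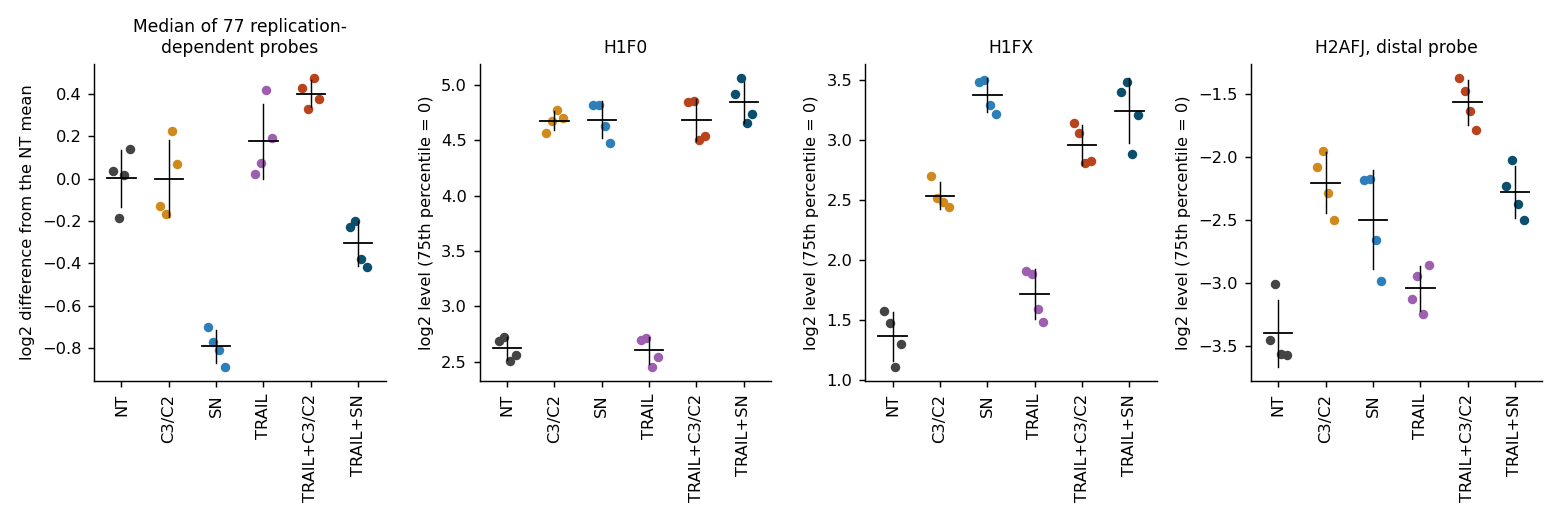
Each point is 1 array and the bar with its whisker the mean ± SD of 4 arrays. The first panel gives, on the y axis, the median over the 77 replication-dependent probes as a log2 difference from the NT mean, and the others the log2 level of H1F0, H1FX and the distal probe of H2AFJ. SN arrays lie from -0.89 to -0.70 in the first panel, and H1F0 separates the groups with C3/C2 or SN from NT and TRAIL.

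H2AFJ, an H2A variant, rose with C3/C2 by one of its probes. Its distal probe, at chr12:14928286-14928345, had levels of -3.45, -3.01, -3.57 and -3.57 in NT, -2.08, -1.95, -2.28 and -2.50 in C3/C2, -2.18, -2.17, -2.66 and -2.98 in SN, and -3.12, -2.94, -3.25 and -2.85 in TRAIL. In TRAIL+C3/C2 it had -1.37, -1.47, -1.63 and -1.78, and in TRAIL+SN -2.23, -2.02, -2.37 and -2.50. The NT arrays overlapped those of TRAIL, and they stood below all those of C3/C2, SN and both co-treatments, the lowest of which was the SN array at -2.98. C3/C2 differed from NT by 1.20 ± 0.17 (SE), TRAIL+C3/C2 by 1.84 ± 0.17 and TRAIL+SN by 1.12 ± 0.17, which were called, and SN by 0.90 ± 0.17. With the array median as the scale, the values for C3/C2 and TRAIL+SN were 0.90 and 0.93, with normexp background 0.76 and 0.85, and with spike-in probes 1.00 and 0.60, all under the fold of 2 before rounding. The probe 471 bases upstream also holds GGCNCTTTT, the start of the stem-loop. That probe differed by 0.47 ± 0.08, 0.48 ± 0.08, 0.84 ± 0.08 and 0.49 ± 0.08 in the same 4 groups, so both probes stood above NT and differed in size.

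The remaining variants changed by less than 2-fold in each treatment. H2AFZ, the H2A variant of active and poised promoters, was lower with SN by -0.46 ± 0.06 (SE, adjusted p = 2.8e-07) and with TRAIL+SN by -0.64 ± 0.06 (adjusted p = 1.7e-09). On slide 4 H2AFZ was lower with TRAIL+SN than with TRAIL+C3/C2 by -0.43 ± 0.06 (adjusted p = 4.9e-06). H2AFX, the variant that is phosphorylated at DNA breaks, differed from NT by -0.45 ± 0.09 in SN, 0.29 ± 0.09 in TRAIL+C3/C2, -0.00 ± 0.09 in C3/C2 and -0.14 ± 0.09 in both TRAIL and TRAIL+SN. The 2 probes of H2AFV, a close relative of H2AFZ, differed by -0.26 ± 0.07 and -0.65 ± 0.14 with SN. Those of H2AFY, which encodes macroH2A, lie 18.5 kb apart and differed by -0.02 ± 0.04 and 0.59 ± 0.12 with SN.

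H3F3A and H3F3B both encode H3.3, the H3 variant deposited outside S phase. H3F3B differed from NT by 0.26 ± 0.07 and 0.55 ± 0.09 (SE) with SN at its 2 probes, and by 0.60 ± 0.07 and 0.22 ± 0.09 with TRAIL+C3/C2. The 4 probes of H3F3A ranged from -0.42 to 0.07 with SN and from -0.28 to 0.41 with TRAIL+C3/C2, so its probes did not share a direction. H1FNT, a testis linker histone, ranged from -0.12 to 0.15 over the 5 treatments with an SE of 0.08. None of these probes was called in a comparison with NT.

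The replication-dependent genes fell with SN as a group. The median difference of the 77 probes from NT was -0.79, against -0.01 over all probes tested, and 66 of them had all 4 SN arrays below all 4 NT arrays (30.8% of all probes tested did). Per array, the median over the 77 probes, as a difference from the NT mean, was -0.18 to 0.14 in NT, -0.17 to 0.22 in C3/C2 and -0.89 to -0.70 in SN. By class the medians with SN were -1.09 for H2A (19 probes, 9 called lower), -0.55 for H2B (22 probes, 1 lower), -0.84 for H3 (14 probes, 4 lower), -0.96 for H4 (17 probes, 7 lower) and -0.31 for H1 (5 probes, none lower). With C3/C2 the class medians lay between -0.19 and 0.11. The median with C3/C2 was -0.16 on slide 1, 0.02 on slide 2 and -0.03 over both slides. Fewer cells in S phase and less histone mRNA per cell cannot be told apart in these bulk samples.

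The 5 largest falls with SN were those of HIST1H3J, HIST1H2AI, HIST1H2AG, HIST1H4B and HIST1H2AL. HIST1H3J, an H3 gene, had levels of 0.18, 0.46, 0.84 and 1.12 in NT, 0.01, 0.34, 1.02 and 0.91 in C3/C2, -1.85, -1.97, -1.74 and -1.96 in SN, and -0.90, -0.85, -0.41 and -0.55 in TRAIL. Its levels were -0.34, -0.49, -0.10 and -0.23 in TRAIL+C3/C2, and -1.24, -1.44, -1.32 and -1.18 in TRAIL+SN. The arrays of slides 3 and 4 all stood below those of slides 1 and 2, and within each of slides 3 and 4 the groups with SN stood lowest. It differed from NT by -2.53 ± 0.20 (SE) with SN, -1.33 ± 0.20 with TRAIL and -1.95 ± 0.20 with TRAIL+SN, and by -0.94 ± 0.20 with TRAIL+C3/C2. Against TRAIL, on slide 3, SN was lower by -1.20 ± 0.20.

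HIST1H2AI, an H2A gene whose probe holds the whole stem-loop, had levels of 1.11, 1.06, 1.41 and 1.57 in NT, 0.54, 0.72, 1.22 and 1.03 in C3/C2, -0.90, -1.01, -1.20 and -1.16 in SN, and 0.26, 0.31, 0.81 and 0.54 in TRAIL. In TRAIL+C3/C2 they were 0.48, 0.41, 0.36 and 0.25, and in TRAIL+SN -0.18, -0.31, -0.65 and -0.64. The SN arrays were the lowest, and those of NT and C3/C2 overlapped. The difference from NT was -2.36 ± 0.15 (SE, adjusted p = 1.4e-11) with SN and -1.73 ± 0.15 with TRAIL+SN.

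HIST1H4B, an H4 gene, had levels of 3.90, 3.93, 4.39 and 4.45 in NT, 3.49, 3.81, 4.26 and 4.15 in C3/C2, 2.33, 2.19, 2.40 and 2.39 in SN, and 3.29, 3.30, 3.74 and 3.60 in TRAIL. In TRAIL+C3/C2 they were 3.29, 3.18, 3.43 and 3.42, and in TRAIL+SN 2.80, 2.65, 2.80 and 2.89. As for HIST1H3J, the arrays of slides 3 and 4 stood lower than those of NT, and those with SN lowest within each slide. HIST1H4B differed from NT by -1.84 ± 0.15 (SE) with SN and -1.38 ± 0.15 with TRAIL+SN.

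HIST1H2AG had levels of 1.58, 1.36, 1.78 and 1.97 in NT against -0.09, -0.27, -0.11 and -0.31 in SN, and differed by -1.87 ± 0.15 (SE). HIST1H2AL had levels of 0.52, 0.19, 0.50 and 0.45 in NT against -1.24, -1.40, -1.36 and -1.61 in SN, and differed by -1.82 ± 0.12. In TRAIL+SN HIST1H2AG had -0.07, 0.08, -0.27 and -0.06 and HIST1H2AL -0.91, -0.96, -1.18 and -1.42, below NT by -1.75 ± 0.15 and -1.53 ± 0.12. Both H2A genes had levels in TRAIL that overlapped those of NT, at 1.21, 1.34, 1.93 and 1.50 for HIST1H2AG and 0.27, 0.33, 0.74 and 0.40 for HIST1H2AL. Of the 9 probes with the stem-loop start, 3 were called lower with SN, those of HIST1H2AI, HIST1H2AG and HIST1H2BF, against 21 of all 77 replication-dependent probes and 9.69% of all probes tested.

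**Figure D3:**
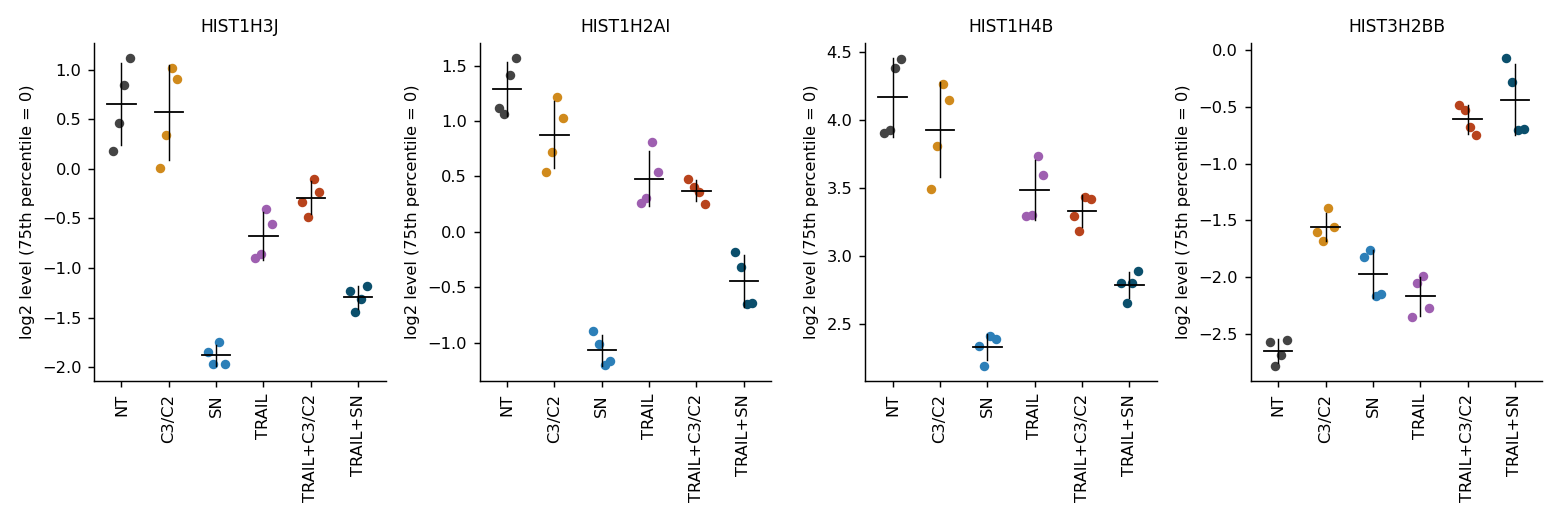
Log2 level (y axis) on each array (points) of 3 replication-dependent genes that were called lower with SN and of HIST3H2BB, by group (x axis), with the mean ± SD of 4 arrays. HIST1H3J and HIST1H4B lie lower on slides 3 and 4 (the 4 groups on the right) than in NT, and lowest with SN.

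The promoters of these genes carry the elements known from histone genes. RefSeq promoter windows (GRCh38.p14, from 250 bases before the start to 50 after) were found for 58 replication-dependent genes, with 62 windows, and CCAAT was present on either strand in 87.1% of them, against 34.6% of the 35116 windows of the table. TATAAA was present in 66.1% against 11.5%, and the octamer ATTTGCAT in 43.5% against 1.77%. In the 10 windows of variant histone genes CCAAT was present in 70%, TATAAA in 40% and the octamer in 10%. CCAAT and TATAAA were therefore frequent in both kinds of histone gene. Among the 11 windows of H4 genes, CCAAT was found in 27.3%, and in those of H2A, H2B and H3 genes in all. The 120 bases before the start are shown for 2 H2A genes and 1 H4 gene that fell with SN, and for H1FX, which rose, with matches to these motifs on either strand in capitals. They lie at chr6:27808053-27808172 (plus strand), chr6:27865197-27865316 (plus), chr6:26027284-26027403 (minus) and chr3:129316287-129316406 (minus), in this order.
HIST1H2AI: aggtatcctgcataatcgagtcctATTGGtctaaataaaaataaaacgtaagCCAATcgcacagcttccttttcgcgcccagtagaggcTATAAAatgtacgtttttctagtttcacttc
HIST1H2AL: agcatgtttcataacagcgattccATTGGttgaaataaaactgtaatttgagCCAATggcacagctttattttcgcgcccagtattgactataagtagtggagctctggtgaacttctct
HIST1H4B: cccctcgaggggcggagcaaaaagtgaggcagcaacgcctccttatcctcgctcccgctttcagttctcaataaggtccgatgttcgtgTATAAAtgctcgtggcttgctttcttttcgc
H1FX: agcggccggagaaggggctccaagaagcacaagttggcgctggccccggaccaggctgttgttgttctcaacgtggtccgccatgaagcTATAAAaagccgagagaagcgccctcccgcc
A match describes the letters of the window and not binding by a factor.

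Groups with SN also stood lower within slides, though no group they were compared with there was untreated. The replication-dependent median stood at 0.16 from NT in TRAIL, 0.38 in TRAIL+C3/C2 and -0.29 in TRAIL+SN. The differences within slides are therefore not falls from NT. On slide 3, SN was lower than TRAIL for 71 of the 77 replication-dependent probes, against 51.4% of all probes tested, with a median difference of -1.02. On slide 4, TRAIL+SN was lower than TRAIL+C3/C2 for 76 of the 77, against 57.3% of all probes, with a median of -0.77. These comparisons share no arrays. That 71 probes were lower in both is nearly fixed by the count on each slide and adds little to them. Of the 94 histone probes, 39 were called lower in SN than in TRAIL (41.5%, against 8.05% of all probes) and 2 higher (12.9% of all probes), which were H1F0 and H1FX. The largest falls were those of HIST1H2AL (-1.84 ± 0.12, SE), HIST1H2BF (-1.83 ± 0.13) and HIST2H2AC, another H2A gene (-1.82 ± 0.13). With spike-in probes as the scale 11 were called lower. In TRAIL+SN against TRAIL+C3/C2, 14 were called lower (14.9%, against 2.50%) and none higher (0.984% of all probes; 0 at an unadjusted p with the same fold), and with spike-in probes or the array median as the scale 8 were called lower. At any fold, 76 histone probes were lower and 6 higher in SN than in TRAIL (34% and 32.4% of all probes), and 77 lower and 1 higher in TRAIL+SN than in TRAIL+C3/C2 (21.4% and 15.7%). Across the 77 probes the sizes of both differences were not related (Pearson's r -0.13, Spearman's rho 0.14), and points of 1 gene or of similar sequence are not independent.

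**Figure D4:**
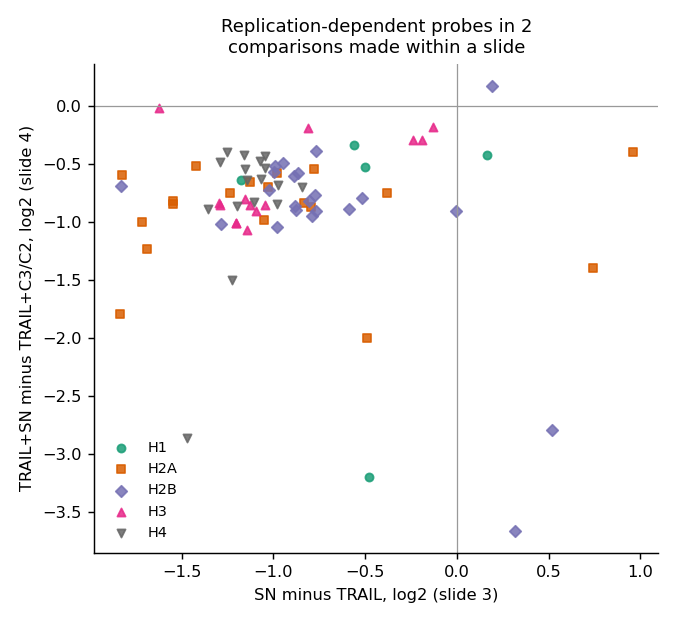
Each point is 1 of the 77 replication-dependent probes, with the log2 difference of SN from TRAIL on slide 3 (x axis) and of TRAIL+SN from TRAIL+C3/C2 on slide 4 (y axis), by class. Both differences were below 0 for 71 probes, a number nearly fixed by the count on each slide.

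SN against C3/C2 compares the supernatant with its main acids. SN was on slide 3 and C3/C2 on slides 1 and 2, so slide and group cannot be told apart here. Of the 94 histone probes, 25 were called lower with SN (26.6%, against 4.28% of all probes) and none higher (1.21% of all probes; 0 at an unadjusted p with the same fold), all of them replication-dependent. At any fold 76 were lower and 6 higher (24.1% and 21.4% of all probes). The replication-dependent median was -0.85, and each of the 77 probes was below 0, from -2.45 to -0.15. The 3 largest among probes measured on both sides were those of HIST1H3J (-2.45 ± 0.20, SE), HIST1H2AI (-1.94 ± 0.15) and the distal probe of HIST1H2AC (-1.75 ± 0.10). With spike-in probes as the scale, 9 were called lower and 1 higher, and with the array median 11 and 1, while the replication-dependent median stayed below 0, at -0.58 and -0.68.

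TRAIL alone changed few histone probes by the fold of 2, with 2 called lower and 1 higher. Few of all probes were called either (2.11% lower and 0.723% higher), so this was not particular to histone genes. At any fold, with an adjusted p under 0.05, 33 histone probes were higher and 7 lower with TRAIL. Of all probes, 19.3% were higher and 12.1% lower by that measure. The median of the replication-dependent probes was 0.16, a shift that turned to -0.10 with spike-in probes as the scale. HIST1H3J was called lower, as above. HIST1H2AA, an H2A gene, was well above background on the 4 NT arrays, at -4.97, -4.75, -4.08 and -4.28, and on no TRAIL array, and stood at least 1.81-fold lower there (adjusted p = 0.022). That call was lost without NT replicate 3 or 4 and without TRAIL replicate 2 or 3, with adjusted p from 0.052 to 0.084, and with normexp background the difference was -0.14. In TRAIL+SN it was at least 1.54-fold lower than in NT, a direction that turned with normexp background (0.17). The probe called higher, a distal probe of HIST2H2BF, was too dim to be marked well above background in NT and in TRAIL, so no fold is given.

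With TRAIL+C3/C2 the largest differences among the replication-dependent genes were those of HIST1H4A, HIST2H2BF, HIST1H1A and HIST3H2BB. The median of the 77 probes was 0.38, which became -0.33 with spike-in probes as the scale, and 12 were called higher (15.6%, against 16.4% of all probes), of which 5 were still called with the array median and 5 with spike-in probes as the scale. With spike-in probes 7 histone probes were called higher and 9 lower. HIST1H4A, an H4 gene, rose most among probes measured on both sides. Its 3′ probe, which ends in the start of the stem-loop, had levels of -1.67, -1.74, -2.07 and -1.98 in NT, -1.15, -1.27, -1.57 and -1.34 in C3/C2, -2.56, -2.46, -2.20 and -2.20 in SN, and -1.04, -0.99, -0.77 and -0.72 in TRAIL. It had 1.88, 1.78, 2.01 and 1.81 in TRAIL+C3/C2, above all other arrays, and -0.90, -1.04, -0.89 and -1.15 in TRAIL+SN. The difference from NT was 3.73 ± 0.11 (SE, adjusted p = 5.3e-17), and TRAIL+SN was lower than TRAIL+C3/C2 by -2.87 ± 0.11 on slide 4. The other HIST1H4A probe starts 26 bases upstream and overlaps it, and it differed from NT by 0.80 with TRAIL+C3/C2, at 2.78, 2.61, 2.78 and 2.63 against 1.87, 1.72, 1.87 and 2.13.

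HIST1H1A, a replication-dependent linker histone, was well above background on all arrays of TRAIL+C3/C2 and on 1 of 4 in NT, 1 of 4 in C3/C2 and none of SN, TRAIL and TRAIL+SN. Its levels in TRAIL+C3/C2 were -3.90, -4.50, -3.51 and -3.59, against -5.89, -6.44, -5.61 and -6.01 in NT. The measured difference from NT, 2.11 ± 0.31 (SE, adjusted p = 3.8e-06), rests on NT signals most of which were too dim to be marked, and was 1.09 with normexp background. TRAIL+C3/C2 stood at least 2.41-fold above TRAIL+SN, where the difference with normexp background was -0.62 for TRAIL+SN against TRAIL+C3/C2 and under the fold of 2. In the remaining groups its values lay near or below the limit of detection. HIST2H4B, an H4 gene, had levels of 3.34, 3.23, 3.38 and 3.29 in TRAIL+C3/C2 against 2.10, 1.90, 2.04 and 2.25 in NT, without overlap, and rose by 1.24 ± 0.09, which was 0.89 with the array median and 0.52 with spike-in probes as the scale. The other replication-dependent genes called higher in TRAIL+C3/C2 and described nowhere else were HIST1H1D, HIST2H2BE, HIST1H4F and HIST1H3H, with differences from 1.00 to 1.11, which lay from 0.66 to 0.76 with the array median and from 0.29 to 0.39 with spike-in probes.

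HIST3H2BB, an H2B gene, rose with the acids and more so in both co-treatments. Its levels were -2.57, -2.78, -2.69 and -2.55 in NT, -1.61, -1.68, -1.39 and -1.56 in C3/C2, -1.83, -1.76, -2.17 and -2.15 in SN, and -2.35, -2.05, -1.99 and -2.27 in TRAIL. In TRAIL+C3/C2 they were -0.48, -0.53, -0.68 and -0.75, and in TRAIL+SN -0.07, -0.28, -0.70 and -0.70. NT was lowest without overlap, and both co-treatments overlapped each other and stood highest. TRAIL+SN differed from NT by 2.21 ± 0.13 (SE), TRAIL+C3/C2 by 2.04 ± 0.13 and C3/C2 by 1.09 ± 0.13. It was the only replication-dependent probe called higher with TRAIL+SN. HIST3H2A, an H2A gene whose probe lies 650 bases away, rose by 1.15 with C3/C2 and 1.18 with TRAIL+C3/C2. Both genes also stood above NT with SN, unlike most replication-dependent probes, and below the fold of 2. There HIST3H2BB differed by 0.67 ± 0.13 and HIST3H2A by 0.99 ± 0.19. With the array median as the scale the rises with C3/C2 were 0.79 for HIST3H2BB and 0.85 for HIST3H2A, and those in TRAIL+C3/C2 with spike-in probes 1.33 and 0.47.

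Probes of 1 gene disagreed for HIST2H2BF and HIST1H2AC. The files place 2 probes of HIST2H2BF, an H2B gene, at chr1:149397120-149397179 and chr1:149398604-149398663, and 2 at chr1:149783558-149783617 and chr1:149783649-149783703 (hg19, minus strand), about 385 kb away. The first bases of each are shown, in this order, since the 4 probes carry different parts of what the files call 1 gene.
HIST2H2BF A_33_P3229241: atcctgacaaaagccagtggatgtttcttt
HIST2H2BF A_33_P3229239: atggtcacggatgcattcgggtttaggact
HIST2H2BF A_33_P3253501: tccaccatcacgtcccgcgagatccagacg
HIST2H2BF A_21_P0010654: caagaccatgggcatcatgaactccttcgt
The last 2 of these probes list transcripts of 3 genes. A_33_P3229241 had levels of -4.90, -4.98, -4.82 and -4.92 in NT, -2.68, -2.31, -2.76 and -2.84 in C3/C2, and -1.62, -1.78, -1.62 and -1.77 in TRAIL+C3/C2. It had -3.81, -4.36, -3.72 and -4.06 in SN, -4.70, -4.31, -4.79 and -4.21 in TRAIL, and -3.93, -4.47, -4.43 and -5.14 in TRAIL+SN. Both groups with C3/C2 stood above all others, and the difference from NT was 2.26 ± 0.19 (SE) with C3/C2 and 3.20 ± 0.19 with TRAIL+C3/C2. With normexp background these were 1.20 and 2.02. A_33_P3229239 was well above background only in these 2 groups, where it stood at least 1.94-fold (C3/C2) and at least 5.18-fold (TRAIL+C3/C2) above NT, with differences of 0.59 and 1.52 under normexp background. The pair of probes 385 kb away differed from NT by 0.10 and 0.11 in C3/C2 and by 0.74 and 0.49 in TRAIL+C3/C2, and was not called.

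HIST1H2AC, an H2A gene, has 2 probes that start 58 bases apart, and a distal one at chr6:26138822-26138881 (hg19, plus strand), 14.4 kb downstream, which starts with gcattatgcaaatgcattatattttatgta. The distal probe had levels of 0.10, -0.09, 0.14 and 0.02 in NT, 1.31, 1.33, 1.37 and 1.35 in C3/C2, -0.49, -0.60, -0.30 and -0.25 in SN, and 0.08, 0.04, 0.17 and 0.03 in TRAIL. In TRAIL+C3/C2 it had 1.10, 1.09, 1.05 and 0.97, and in TRAIL+SN -1.27, -1.03, -0.75 and -0.72. The groups with C3/C2 stood above NT and those with SN below it, without overlap. The differences from NT were 1.30 ± 0.10 (SE, adjusted p = 1.9e-10) with C3/C2 and 1.01 ± 0.10 with TRAIL+C3/C2, and TRAIL+SN was lower than TRAIL+C3/C2 by -2.00 ± 0.10. The other 2 probes differed from NT by -0.30 and -0.36 in C3/C2 and by -1.09 and -1.48 in SN, where both were called lower. With the array median as the scale, the distal rise with C3/C2 was 1.00, just under the fold of 2, and that in TRAIL+C3/C2 was 0.66. With spike-in probes the latter was 0.30.

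**Figure D5:**
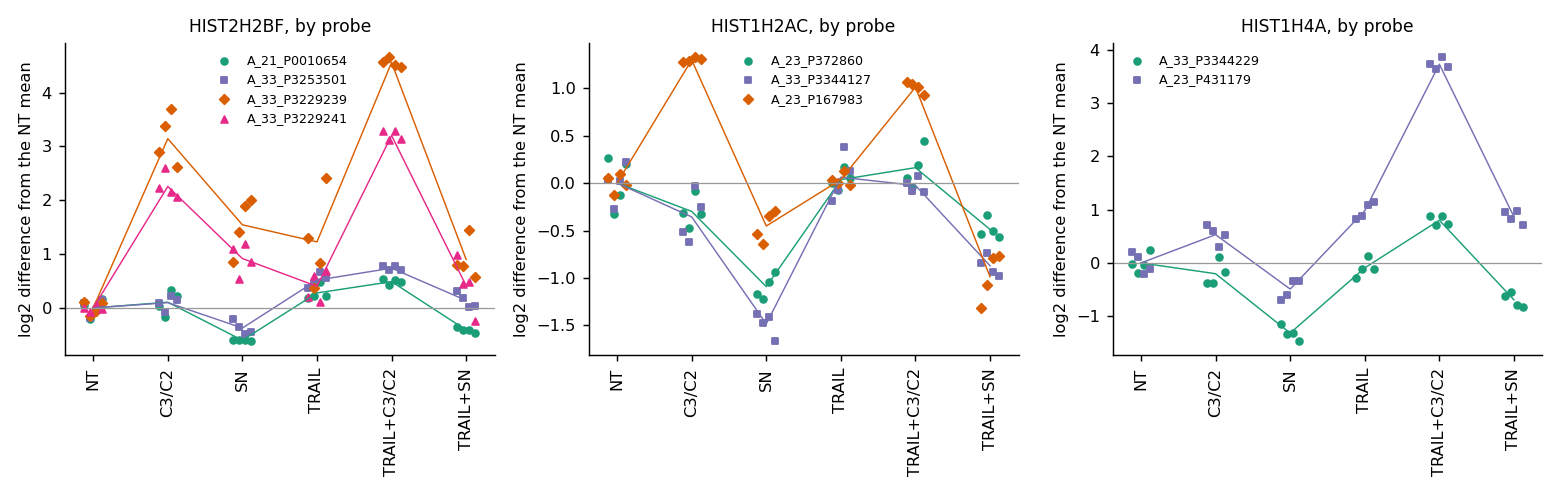
Each point is 1 array, as a log2 difference from the NT mean of the same probe (y axis), by group (x axis) and probe (symbol), and lines join the group means. The distal probes of HIST2H2BF and HIST1H2AC and the 3′ probe of HIST1H4A rise with C3/C2 or TRAIL+C3/C2 by more than the other probes of the same symbol.

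The interaction asks whether both agents together gave more or less than their log2 differences added up. For C3/C2, 3 of the 94 histone probes were called above the sum (3.19%, against 0.458% of all probes) and none below (0.15% of all probes; 0 at an unadjusted p with the same fold). They were both probes of HIST1H4A (2.22 ± 0.16 and 1.10 ± 0.16, SE) and HIST1H1A (2.43 ± 0.44). The second HIST1H4A probe fell to 0.95 with the array median and 0.84 with spike-in probes, under the fold of 2. The HIST1H1A value rests on groups at or below the limit of detection and was 0.76 with normexp background, where it was not called. For SN, 6 were called above the sum (6.38%, against 2.60%) and 1 below (0.379% of all probes), a dim probe of HIST2H2BF. At any fold, 9 were above for C3/C2 (1.52% of all probes) and none below (0.905%), and for SN 26 above (10.1%) and 8 below (11.5%). Those above were HIST1H3J (1.91 ± 0.28), HIST1H2AI (1.43 ± 0.21), HIST1H4H (1.26 ± 0.15), HIST2H3A (1.22 ± 0.18), HIST1H4B (1.14 ± 0.21) and HIST3H2BB (1.06 ± 0.18). Both interactions combine groups of different slides, so slide and interaction cannot be told apart, and with spike-in probes as the scale that for SN had 2 calls above and 2 below. HIST1H4H had levels of 2.20, 2.16, 2.42 and 2.42 in NT, 1.03, 0.89, 0.94 and 0.81 in SN, 1.73, 1.90, 2.24 and 1.99 in TRAIL, and 1.92, 1.86, 1.78 and 1.82 in TRAIL+SN. Its SN arrays stood lowest, and its TRAIL and TRAIL+SN arrays overlapped.

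Genes that serve histone supply gave a mixed picture. Of 20 tested genes for transcription and 3′ end processing of replication-dependent histone mRNA, 3 were called higher with SN, 3 with TRAIL+C3/C2, 2 with TRAIL+SN, 1 with C3/C2 and none with TRAIL, and none was called lower in these 5 treatments. Of all probes, 14.1%, 16.4%, 16.1%, 13.3% and 0.723% were called higher in the same order, so no share of this list stood clearly above the background. In that order 9.69%, 8.12%, 10.2%, 6.22% and 2.11% of all probes were called lower, which is few in a list of 20. Their median difference from NT was 0.11 with SN, against -0.01 over all probes. SLBP, which binds the stem-loop, was higher by 0.75 ± 0.08 (SE) with C3/C2 and 0.83 ± 0.08 with SN, below the fold of 2. ERI1, a nuclease that acts on the stem-loop, rose by 1.43 ± 0.09 with SN, and CCNE1, the cyclin that starts S phase, by 1.25 ± 0.14. HINFP, a factor of H4 promoters, rose by 1.12 ± 0.08 with SN. These rises were not particular to SN. ERI1, CCNE1 and HINFP also stood above all NT arrays on every array of C3/C2 and of both co-treatments. For ERI1 the levels were 0.12, 0.08, 0.16 and 0.12 in C3/C2 against -0.72, -0.81, -0.72 and -0.92 in NT. NPAT and CASP8AP2, which act at histone loci, differed from NT by 0.03 ± 0.10 and -0.04 ± 0.10 with SN, and by -0.42 ± 0.10 and -0.35 ± 0.10 with TRAIL.

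Of 27 genes for histone chaperones and deposition, 1 was called higher and 1 lower with SN, and 1 higher and 2 lower with C3/C2. Of all probes, 14.1% were called higher and 9.69% lower with SN, and 13.3% and 6.22% with C3/C2. With the co-treatments none was called higher, and 3 were called lower in TRAIL+C3/C2, against 2 in TRAIL+SN (8.12% and 10.2% of all probes). CENPA, the H3 variant of centromeres, fell by 1.91 on the log2 scale with SN, and it fell by 1.03 with C3/C2. Its levels were 1.29, 1.39, 1.01 and 0.86 in NT, 0.14, 0.24, 0.06 and -0.00 in C3/C2, and -0.63, -0.56, -0.91 and -0.97 in SN, without overlap. VPS72, which acts in the exchange of H2A.Z, fell by 1.24 on the log2 scale in C3/C2 and fell by 1.19 in TRAIL+C3/C2. UBN1, of the H3.3 deposition complex, rose by 1.02 ± 0.06 with SN. CHAF1A, of the complex that deposits H3 and H4 at replication forks, differed by 1.00 ± 0.08 with C3/C2, at the fold of 2. CHAF1B differed by -0.68 ± 0.05, and the chaperones ASF1A and ASF1B by -0.43 ± 0.11 and 0.21 ± 0.15 with C3/C2. ASF1A fell by 1.19 on the log2 scale with TRAIL+C3/C2. With SN, HIRA, DAXX and NASP differed by 0.09 ± 0.09, -0.03 ± 0.06 and -0.75 ± 0.08.

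Of 21 S phase genes none was called with SN, where 13 passed the adjusted p in the lower and 3 in the higher direction at any fold, with a median of -0.25. Of all probes, 9.69% were called lower with SN, and 33.8% passed the adjusted p lower and 35.2% higher at any fold. With C3/C2, 11 of the 21 passed it lower and 5 higher (28.3% and 34.9% of all probes), with a median of -0.19. RRM2 alone was called lower with C3/C2, a subunit of ribonucleotide reductase that differed by -1.27 ± 0.12 (SE). PCNA, the replication clamp, differed by -0.19 ± 0.09 with C3/C2 and -0.67 ± 0.09 with SN. In TRAIL+C3/C2, 2 S phase genes were called lower and none higher, and in TRAIL+SN 2 lower and 1 higher. Of all probes, 8.12% and 10.2% were called lower in these groups, and 16.4% and 16.1% higher. In TRAIL+SN, CDC6, which loads the replicative helicase, was called higher (1.02 ± 0.08) and MCM6, a helicase subunit, lower (-1.21 ± 0.10). Neither change was particular to TRAIL+SN. All arrays of C3/C2, SN and TRAIL+C3/C2 also stood above those of NT for CDC6 and below them for MCM6.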

How the data were processed

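The authors labelled total RNA with Cy3 using the Agilent Low Input Quick Amp kit, hybridised it to Agilent arrays and extracted spots with Agilent Feature Extraction 10.7.3.1. The deposited intensity is background-subtracted and not normalized between arrays. In a second table deposited by the authors these intensities are scaled to the array median, as checked on the values, and its 24 flag columns were not used. The deposited raw signal and background intensity served 1 alternative. The members and lists were chosen with earlier results of these data known. Control and outlier spots were left out, spots of a probe averaged as log2, and the 75th percentile of each array subtracted. The filter on dim probes, a whole group of 4 arrays marked well above background, kept 27957. One limma fit (3.58.1, in R 4.3.3, with eBayes) of 6 group means over 24 arrays left 18 residual degrees of freedom, with Benjamini-Hochberg adjustment over all probes tested, and the fit was tested on simulated data. A fold against a group not measured on any array is a lower bound, set against the dimmest signal marked well above background on each array. Named were all variants, the 5 largest changes in each direction per treatment (3 in the other comparisons) among called probes whose arrays do not overlap with NT, and fixed genes of the 3 lists with the largest called. The probes named for SN against TRAIL, and those beyond 3 in the interaction with SN, were chosen after their values were seen. No saturated spot was found. Arrays of a group correlated at 0.992 to 0.997, and their number limits the precision (median SE of a log2 difference 0.112). Alternatives were another scaling, background, filter, threshold or block, the deposited table, 1 probe per gene, and leaving out each array. Rosetta Resolver, used by the authors, was not used here. One gene of the S phase list is not reported here by name. Coordinates of probes are hg19, from the files. Figures used matplotlib.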

Additional observations from a re-analysis of the deposited data

Results flagged for a closer look

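An interaction on the log2 scale is positive where the co-treatment stood above the sum of its single treatments. Each combines groups of different slides, so slide and interaction cannot be told apart. Of all probes, 0.458% were called above the sum and 0.15% below for C3/C2, and 2.60% and 0.379% for SN. An interaction of TRAIL with C3/C2 or SN was called for 10 histone probes (limma). With C3/C2 these were HIST1H1A (2.43, adjusted p = 0.0031), HIST1H4A at its 3′ probe (2.22, adjusted p = 2.7e-08) and HIST1H4A at its other probe (1.10, adjusted p = 0.00033). With SN they were HIST1H3J (1.91, adjusted p = 8.0e-05), HIST1H2AI (1.43, adjusted p = 0.00011), HIST1H4H (1.26, adjusted p = 1.5e-05), HIST2H3A (1.22, adjusted p = 0.00011), HIST1H4B (1.14, adjusted p = 0.00072), HIST3H2BB (1.06, adjusted p = 0.00043) and a distal probe of HIST2H2BF (-1.87, adjusted p = 0.0065). HIST1H1A was well above background on all arrays of TRAIL+C3/C2 alone, and the HIST2H2BF probe on none of NT, SN, TRAIL and TRAIL+SN, so the size of their interaction has no measured base. In the 102 groups of 4 arrays of the 17 named probes that were called, no array stood apart from the other 3 by Dixon's criterion, which chance alone meets in about 1 group in 20.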

How the results depend on the processing

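The direction of the named called differences held in all but 2 of 2090 recomputations: with normexp background, HIST1H1A and HIST1H2AA turned to 0.46 and 0.17 with TRAIL+SN against NT, 2 dim probes. Another threshold or filter, or leaving out an array of a group not compared, keeps the difference of a probe as it is. Many of the 2090 could therefore not change a direction, and the tally says little about robustness. The named differences fell below the fold of 2 or the adjusted p in 36 of the 2090. Counts of histone probes called are given below as higher, then lower, where they moved over 1.5 times. With the adjusted p at any fold, they were 21 and 20 for C3/C2 against NT, 11 and 73 for SN, 55 and 12 for TRAIL+C3/C2, 33 and 7 for TRAIL, 18 and 49 for TRAIL+SN, 6 and 76 for SN against C3/C2, 1 and 77 for TRAIL+SN against TRAIL+C3/C2, 6 and 76 for SN against TRAIL, 9 higher for the interaction with C3/C2, and 26 and 8 for that with SN. With the array median, and equally with the deposited table, they were 3 and 1 for C3/C2, 2 higher for TRAIL, 18 lower for TRAIL+SN, 8 and 5 for TRAIL+C3/C2, 1 and 11 for SN against C3/C2, 8 lower for TRAIL+SN against TRAIL+C3/C2 and 2 lower for the interaction with SN. With spike-in probes they were 4 higher for C3/C2, 0 higher for TRAIL, 34 lower for TRAIL+SN, 7 and 9 for TRAIL+C3/C2, 1 and 9 for SN against C3/C2, 8 lower for TRAIL+SN against TRAIL+C3/C2, 11 lower for SN against TRAIL, and 2 and 2 for the interaction with SN. With normexp they were 4 higher for C3/C2, 0 and 1 for TRAIL, 16 lower for SN against C3/C2, 6 lower for TRAIL+SN against TRAIL+C3/C2 and 0 lower for the interaction with SN. With 1 probe per gene they were 4 higher for C3/C2, 0 higher for TRAIL, 9 higher for TRAIL+C3/C2, 8 lower for TRAIL+SN against TRAIL+C3/C2 and 0 lower for the interaction with SN. With only probes well above background on all 24 arrays they were 0 and 1 for TRAIL and 0 lower for the interaction with SN, and with quantile normalization 1 lower for TRAIL+C3/C2 and 2 lower for the interaction with SN. Without both arrays of slide 1, an alternative chosen after seeing the data, they were 2 higher for TRAIL and 1 lower for TRAIL+C3/C2. The cause of these moves was not tested.

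Without 1 array at a time, the counts ranged from 8 to 9 higher for C3/C2, 3 to 5 higher and 20 to 26 lower for SN, 0 to 2 higher and 1 to 2 lower for TRAIL, 4 to 5 higher and 10 to 14 lower for TRAIL+SN, 11 to 16 higher and 0 to 1 lower for TRAIL+C3/C2, 18 to 28 lower for SN against C3/C2, 11 to 15 lower for TRAIL+SN against TRAIL+C3/C2, 2 to 3 higher and 29 to 46 lower for SN against TRAIL, and 3 higher with C3/C2 and 5 to 7 higher and 1 to 2 lower with SN for the interactions. The moves over 1.5 times came with these arrays left out: SN replicate 4 (5 higher for SN), NT replicates 1 and 2 and TRAIL replicates 1 and 2 (2 higher for TRAIL), TRAIL replicate 4 (0 higher for TRAIL), NT replicates 3 and 4 and TRAIL replicates 2 and 3 (1 lower for TRAIL), NT replicates 1 and 2 and TRAIL+C3/C2 replicate 3 (1 lower for TRAIL+C3/C2), and SN replicate 2, TRAIL replicate 3 and TRAIL+SN replicate 1 (2 lower for the interaction with SN).

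The replicate number as a block changed no count: it gave 8 and 0 for C3/C2, 3 and 21 for SN, 1 and 2 for TRAIL, 4 and 11 for TRAIL+SN, and 15 and 0 for TRAIL+C3/C2. Of 60 pairs of arrays with the same number, 52 had deviations that correlated over 0.1 (0.05 to 0.45), and 23 of 24 arrays correlated best with their own number, a hint from the data and not the design. Low signals limit the dim probes of HIST1H1A, HIST1H2AA and HIST2H2BF.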
